A study of Saccharomyces cerevisiae with 8 samples.

Results

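The COS genes of budding yeast, Saccharomyces cerevisiae, are a family of similar genes that lie near the telomeres. They were examined through every probe set whose gene annotation named any of COS1 to COS10, which gave all 10 genes of the list, of 5850 genes named on the array, through 20 of the 8330 probe sets analysed. Of these, 13 were annotated to 1 gene and 7 to several COS genes, and both kinds are described apart. RNA levels had been measured on 8 one-colour oligonucleotide arrays, 1 per sample, in a study of yeast ageing. The samples were wild-type yeast and yeast with a null allele of sgs1, each grown in log phase either untreated or with the alkylating DNA-damaging agent methyl methanesulfonate (MMS), with 2 arrays in each of the 4 groups. SGS1 encodes a RecQ-family DNA helicase. The sources used here give neither the strain background, the way the null allele was made, the number of isolates, nor the dose and time of MMS. The labels leave unsaid whether paired arrays had cultures of their own, so the spread between them may be technical.

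COS proteins are membrane proteins that span the membrane several times. In yeast they help ubiquitinated cell-surface proteins to enter multivesicular bodies, the endosomes that deliver membrane proteins to the vacuole for breakdown. Genes this close to telomeres can be held down by silent chromatin that depends on the Sir proteins. COS genes belong to a superfamily that also holds the DUP membrane proteins, and the copies are alike enough for one probe to match several of them.

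Of the 10 genes, 6 had a probe set annotated to them alone, and 4 genes (COS1, COS2, COS3 and COS5) were seen only through shared probe sets. COS8, COS9 and COS10 had 3 probe sets each, COS7 had 2, and COS4 and COS6 had 1 each. In the maker's naming, the suffix _f_at marks probes that match a sequence family, _s_at probes that match several similar transcripts, and _i_at an incomplete probe set. A probe set annotated to 1 gene can carry such a suffix, so its signal may still hold that of a relative. This holds for COS4, COS7, COS8, COS9 and COS10. In the RefSeq annotation of assembly R64, COS2 (YBR302C), COS5 (YJR161C) and COS7 (YDL248W) were the last annotated genes of their chromosome arms, with 0 genes between each of them and the end. COS1 (YNL336W), COS3 (YML132W) and COS6 (YGR295C) had 1 gene beyond them, COS8 (YHL048W) and COS10 (YNR075W) had 3, COS9 (YKL219W) had 4 and COS4 (YFL062W) had 5.

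Values below are quantile-normalized intensities on a linear scale, with every value below the 10th percentile raised to that floor of 97.1. Changes are log2 differences of group means ± standard error from one limma fit over all 8 arrays. The threshold is an adjusted p-value of 0.05 over the 8330 probe sets. Of the COS probe sets, 16 were above the floor on all 8 arrays, 3 were at it on some arrays and 1 on all of them. Over all probe sets, 82.3% were above the floor on every array. The family was chosen by its log2 values across the 4 groups, that is with its strain and MMS differences known, so levels and changes of its members are given as a description with no p-value, and nothing is read from the counts of members past a threshold. The label of the strains was checked on SGS1 itself, which was at the floor on all 4 sgs1 null arrays and between 354 and 882 on the 4 wild-type arrays. Untreated null yeast thus read at least 6.67-fold lower (limma adjusted p = 0.118), and MMS-treated null yeast at least 4.53-fold lower (limma adjusted p = 0.281), than wild type. Each group enters 2 comparisons, 1 of strain and 1 of MMS, so these comparisons share arrays.

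**Figure D1:**
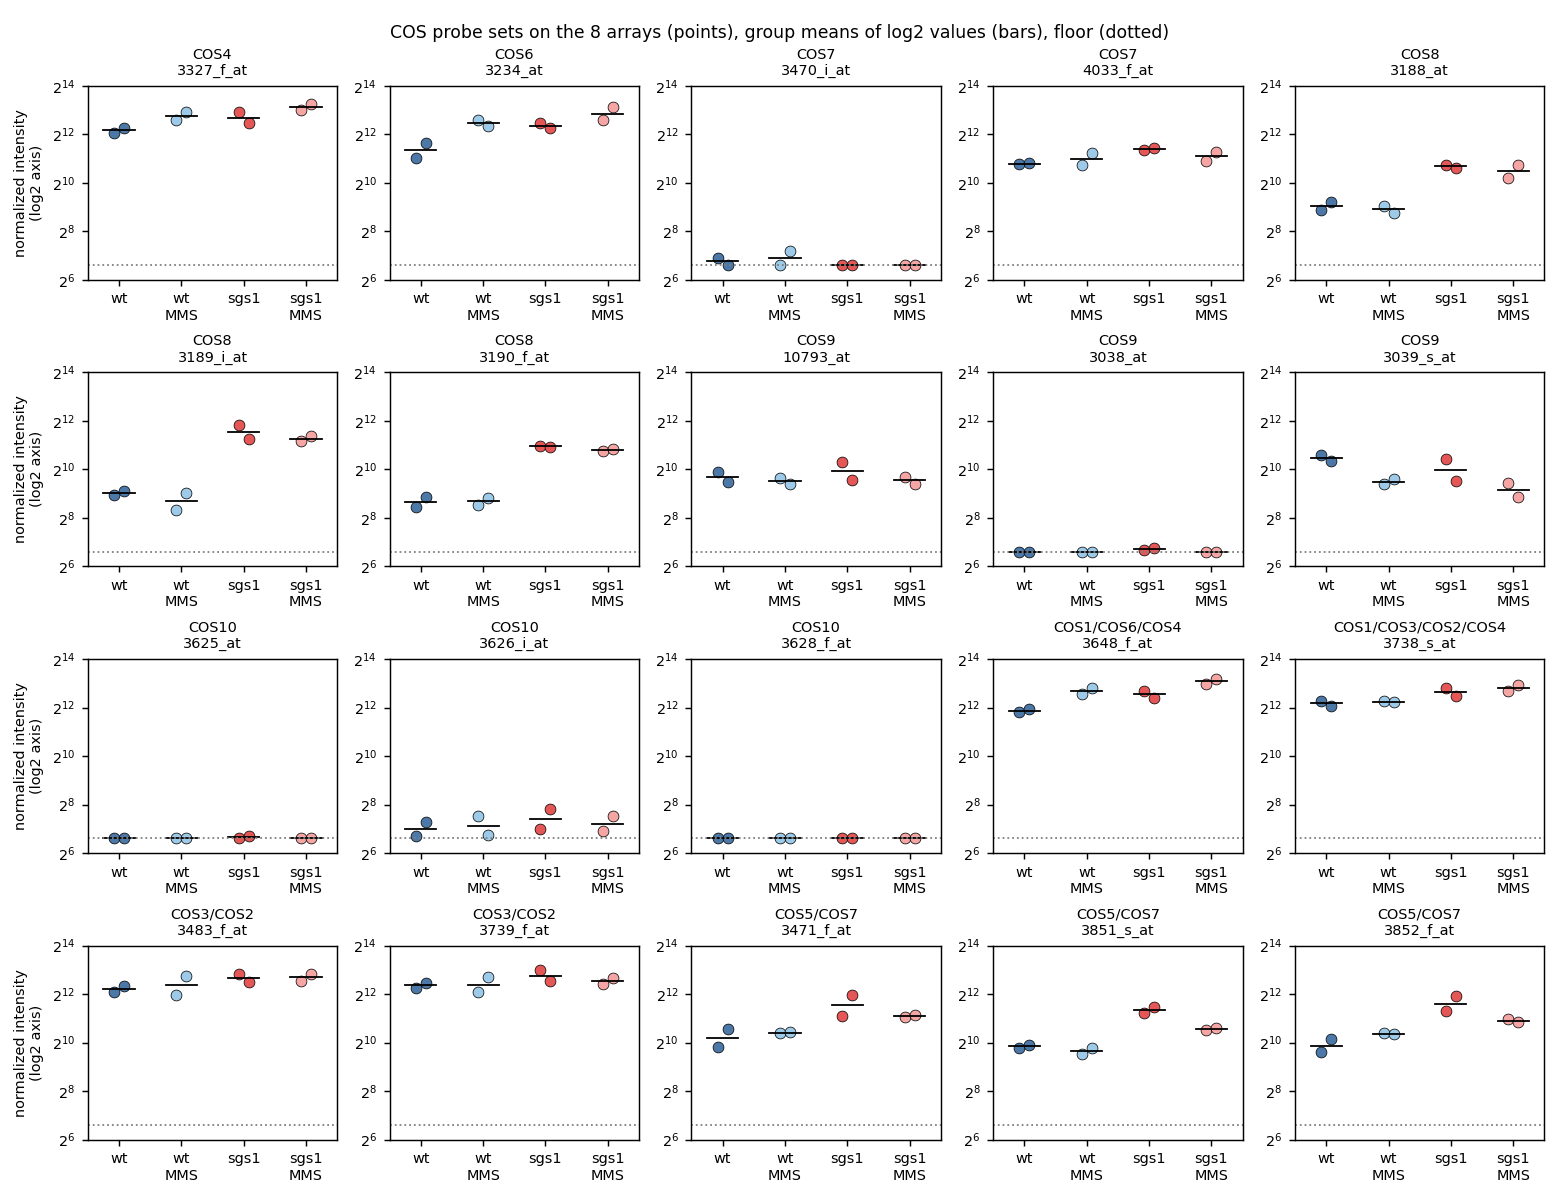
Normalized intensity (log2 axis) of the 20 COS probe sets, 1 panel each, in wild type (wt) and sgs1 null (sgs1), untreated or with MMS. Points are single arrays, bars the group means of log2 values and the dotted line the floor of 97.1. The 3 COS8 panels and the 3 COS5/COS7 panels show all 4 sgs1 null arrays above all 4 wild-type arrays.

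With values floored at 97.1, COS8 showed a wide strain difference on all 3 of its probe sets, with 3189_i_at the widest of the family. Without the floor, the dim COS7 probe set 3470_i_at had values of -6.25 untreated and -5.22 with MMS. These rest on deposited null readings between 1 and 6.1, far below the floor, so they are no measured size and are not ranked. On probe set 3188_at the wild-type arrays read 469 and 590 untreated and 532 and 429 with MMS. The sgs1 null arrays read 1718 and 1567 untreated and 1177 and 1710 with MMS. The strains did not overlap in either growth condition. On 3189_i_at wild type read 496 and 548 untreated and 322 and 528 with MMS, and the null strain read 3674 and 2415 untreated and 2287 and 2662 with MMS. On 3190_f_at wild type read 351 and 463 untreated and 368 and 455 with MMS, and the null strain read 2012 and 1930 untreated and 1709 and 1833 with MMS. All 3 probe sets separated the strains in the same direction. In RNA from whole cultures, more cells with the transcript and more transcript per cell cannot be told apart.

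The untreated strain difference of COS8, sgs1 null minus wild type, was 1.64 ± 0.24 on 3188_at, 2.51 ± 0.32 on 3189_i_at and 2.29 ± 0.18 on 3190_f_at. With MMS it was 1.57 ± 0.24, 2.58 ± 0.32 and 2.11 ± 0.18 in the same order. These differences exceed the widest log2 gap between 2 arrays of 1 group, which was 0.54, 0.72 and 0.40. Averaged over both growth conditions the null strain was 3.04-fold, 5.85-fold and 4.60-fold higher. Only 2 of the 8330 probe sets had a larger averaged difference than 3189_i_at in that direction, 4 had a larger one than 3190_f_at and 14 than 3188_at. Because the genes were chosen with these levels in view, the ranks are a description. MMS went with small differences in COS8: between -0.34 ± 0.32 and 0.02 ± 0.18 in wild type and between -0.27 ± 0.32 and -0.16 ± 0.18 in the null strain.

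The 3 probe sets shared by COS5 and COS7 also read higher in the null strain. On 3851_s_at wild type read 881 and 961 untreated and 735 and 890 with MMS, and the null strain read 2425 and 2806 untreated and 1478 and 1570 with MMS. On 3852_f_at wild type read 786 and 1132 untreated and 1331 and 1329 with MMS, and the null strain read 2509 and 3861 untreated and 1990 and 1861 with MMS. On 3471_f_at wild type read 914 and 1522 untreated and 1344 and 1382 with MMS, and the null strain read 2219 and 3989 untreated and 2148 and 2285 with MMS. All 4 null arrays were above all 4 wild-type arrays on each of the 3 probe sets. With MMS both null arrays were below both untreated null arrays on 3851_s_at and 3852_f_at, and the groups overlapped on 3471_f_at.

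Untreated, the strain difference of the COS5/COS7 probe sets was 1.50 ± 0.13 on 3851_s_at, 1.72 ± 0.27 on 3852_f_at and 1.33 ± 0.36 on 3471_f_at. With MMS it was 0.91 ± 0.13, 0.53 ± 0.27 and 0.70 ± 0.36 in the same order. In the null strain the MMS values were below the untreated ones by -0.78 ± 0.13, -0.69 ± 0.27 and -0.43 ± 0.36 on the log2 scale. The value of 3471_f_at was 0.00 without the second and -0.86 without the first untreated null array, and that of 3852_f_at was -0.38 without the second. No COS probe set passed for the difference between the responses. In wild type the MMS differences were -0.19 ± 0.13, 0.50 ± 0.27 and 0.21 ± 0.36. The probe sets share targets, so they are not independent measurements of COS5 or COS7.

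The 2 probe sets annotated to COS7 alone differed from each other. On 4033_f_at wild type read 1725 and 1808 untreated and 1715 and 2377 with MMS, and the null strain read 2639 and 2725 untreated and 1894 and 2483 with MMS. The strains did not overlap untreated (0.60 ± 0.21) and overlapped with MMS (0.10 ± 0.21). In the null strain both MMS values were below both untreated ones (-0.31 ± 0.21), and in wild type the MMS difference was 0.19 ± 0.21. All of these differences had the sign of those on the shared probe set 3471_f_at and were smaller. On 3470_i_at all 4 null arrays were at the floor, and wild type read 120 and 97.1 untreated and 97.1 and 147 with MMS. The deposited values of 3470_i_at, before normalization and floor, were 1.3 and 2 in the untreated and 6.1 and 1 in the MMS-treated null strain, against 130 and 95.8 in untreated and 79.4 and 137.2 in MMS-treated wild type. The strain difference on this dim probe set thus had the opposite direction to that of 4033_f_at, and with 6 of 8 arrays at the floor it has no measured size.

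Of the probe sets annotated to 1 gene, those of COS4 and COS6 had the higher readings under MMS in both strains. The COS4 one, 3327_f_at, carries the family suffix, so its signal may hold that of relatives. On 3738_s_at, which COS4 shares with COS1, COS2 and COS3, MMS groups overlapped untreated ones in both strains. Its MMS difference was 0.06 ± 0.16 in wild type and 0.17 ± 0.16 in the null strain. The rise on 3327_f_at can therefore not be credited to COS4 itself. On 3234_at, annotated to COS6, wild type read 2073 and 3225 untreated and 6188 and 5192 with MMS, and the null strain read 5586 and 4880 untreated and 6117 and 8811 with MMS. The MMS groups did not overlap the untreated ones in either strain (1.13 ± 0.29 in wild type, 0.49 ± 0.29 in sgs1 null). On 3327_f_at, annotated to COS4, wild type read 4263 and 4918 untreated and 6173 and 7626 with MMS, and the null strain read 7674 and 5640 untreated and 8265 and 9838 with MMS. Here too the MMS groups were apart from the untreated ones, by 0.58 ± 0.21 in wild type and 0.45 ± 0.21 in the null strain. In the null strain the value ran from 0.23 to 0.68 for COS4 without 1 untreated null array, and from 0.23 to 0.76 for COS6 without 1 MMS-treated null array.

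Probe set 3648_f_at, shared by COS1, COS4 and COS6, behaved in the same way. Wild type read 3585 and 3909 untreated and 6099 and 7102 with MMS, and the null strain read 6659 and 5409 untreated and 8125 and 9185 with MMS. This was the only COS probe set past the threshold in any of the 5 comparisons: it rose with MMS in wild type by 0.81 ± 0.15. That call was lost under 14 of the alternative settings, among them each of the 8 fits without 1 array, while the value stayed between 0.65 and 0.93. Untreated, the null strain was higher than wild type on these 3 probe sets as well, by 1.01 ± 0.29 for COS6, 0.52 ± 0.21 for COS4 and 0.68 ± 0.15 for the shared one. With MMS the strain difference was 0.37 ± 0.29 for COS6, with overlapping strains. It was 0.39 ± 0.21 for COS4 and 0.39 ± 0.15 for the shared one, without overlap.

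COS1, COS2 and COS3 were seen through shared probe sets whose strain differences were smaller than those of COS8. On 3738_s_at, shared by COS1, COS2, COS3 and COS4, wild type read 4989 and 4306 untreated and 4883 and 4801 with MMS, and the null strain read 7143 and 5740 untreated and 6560 and 7881 with MMS. All 4 null arrays were above all 4 wild-type arrays, by 0.47 ± 0.16 untreated and 0.57 ± 0.16 with MMS, and the MMS difference was 0.06 ± 0.16 in wild type and 0.17 ± 0.16 in the null strain. The 2 probe sets shared by COS2 and COS3 ran from 4057 to 7237 (3483_f_at) and from 4392 to 8156 (3739_f_at). Their strains were apart untreated, by 0.44 ± 0.30 and 0.40 ± 0.27, and overlapped with MMS. Over the alternative settings the untreated strain difference ran from 0.31 to 0.60 on 3738_s_at, from 0.27 to 0.58 on 3483_f_at and from 0.17 to 0.62 on 3739_f_at.

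COS9 had the lowest MMS difference of the family, on 1 of its 3 probe sets. On 3039_s_at wild type read 1535 and 1301 untreated and 676 and 772 with MMS, and the null strain read 1376 and 730 untreated and 695 and 467 with MMS. The MMS values were lower than the untreated ones in both strains, by -0.97 ± 0.36 in wild type and -0.82 ± 0.36 in the null strain, with the strains overlapping. In the null strain it was -0.36 without the first and -1.30 without the second untreated array. The second COS9 probe set, 10793_at, ran from 667 to 1268 with overlapping groups in every comparison, and its MMS differences were -0.18 ± 0.31 and -0.38 ± 0.31. The third, 3038_at, was at the floor on 6 arrays and read 101 and 109 in the untreated null strain, just above it. COS10 was near or at the floor: 3628_f_at was at it on all 8 arrays and 3625_at on 7, and 3626_i_at ran from 104 to 226 with all groups overlapping. Levels of COS10 could therefore not be ordered.

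**Figure D2:**
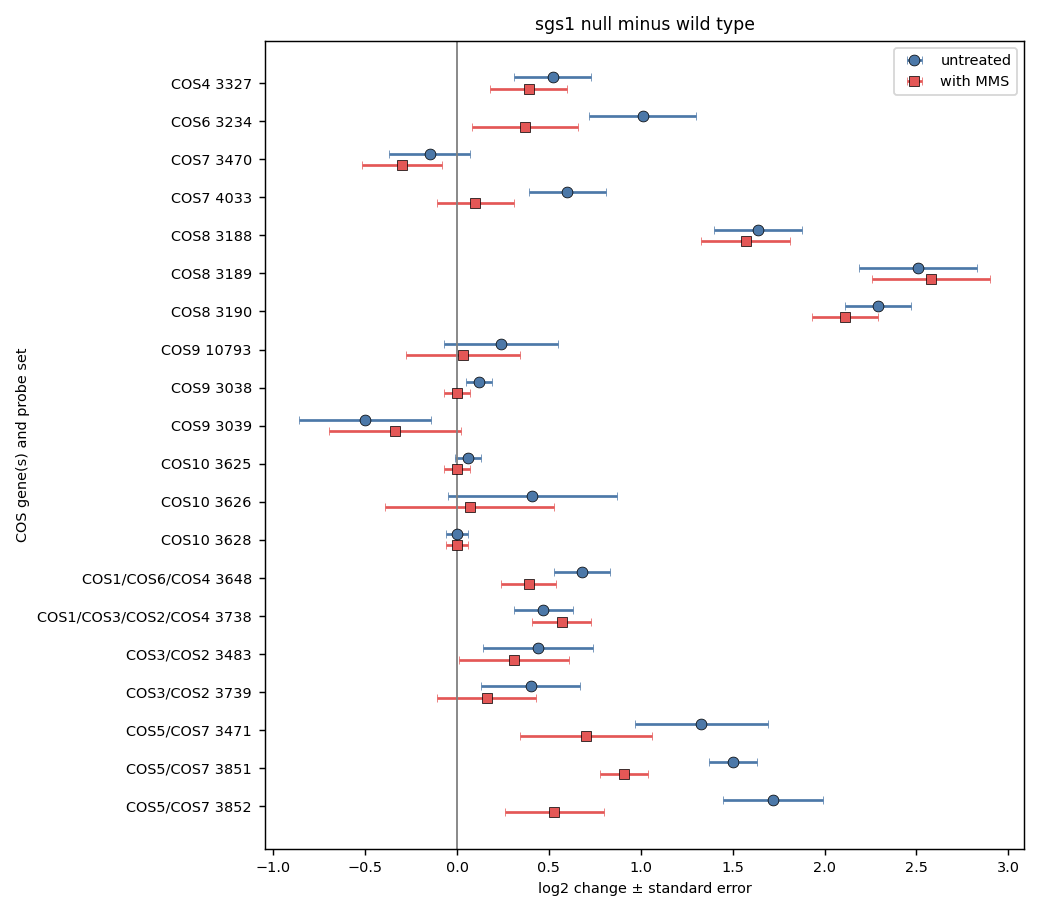
Strain difference (sgs1 null minus wild type, log2 ± standard error) of the 20 COS probe sets, untreated (circles) and with MMS (squares). COS8 lies between 1.57 and 2.58 in both growth conditions, and the COS5/COS7 probe sets lie lower with MMS than untreated.

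Untreated, the strain difference was above 0 on 17 of the 20 COS probe sets. It was below 0 on 2, 3039_s_at of COS9 and the dim 3470_i_at of COS7. The family was chosen with these values known, so the counts here are a description. On 14 of the 20 COS probe sets both null arrays were above both wild-type arrays, and on 0 below. Over all 8330 probe sets, 18.7% were not overlapping and higher in the null strain and 20.2% not overlapping and lower. The 14 were 7 of the 13 probe sets of 1 gene and all 7 of the shared ones. The median untreated strain difference was 0.41 over the 13 and 0.68 over the 7, against 0.00 over all probe sets. With MMS 9 of the 20 did not overlap and were higher, and 0 lower, against 12.5% and 12.8% of all probe sets. The medians with MMS were 0.07 over the 13 and 0.53 over the 7. Of the 13, 4 were at the floor on some or all arrays, and over the alternative settings their median ran from 0.24 to 0.81 untreated and from 0.00 to 0.38 with MMS, the highest of each with the dimmest 25% of probe sets left out. With all 4 arrays of a strain set against all 4 of the other, a count added after the values were seen, 7 of 20 were higher in the null strain and 0 lower, against 1.84% and 1.52% of all probe sets. Those 7 were the 3 of COS8, the 3 of COS5/COS7 and 3738_s_at. These probe sets stand for few independent signals, since the shared ones overlap in their targets.

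Of the COS probe sets, limma called 0 for the strain difference untreated and 0 with MMS, where it called 0.024% and 0.012% of all probe sets. At an unadjusted p under 0.05 there were 10 and 6 COS probe sets, where 10.8% and 6.35% of all probe sets had such a p, and limma with an intensity trend also called 0 COS probe sets in both. With the dimmest 25% of probe sets left out of the fit, 2 COS8 probe sets (3189_i_at and 3190_f_at) passed for the untreated strain difference. Without the floor, 3470_i_at of COS7 passed as lower in the null strain in both growth conditions, on null readings below the floor.

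The MMS differences of the COS probe sets had both signs in each strain. In wild type 4 of the 20 probe sets did not overlap and were higher with MMS and 1 was lower, against 25.4% and 25.1% of all probe sets. Limma called 1 of the 20, where it called 6.23% of all probe sets. At an unadjusted p under 0.05 there were 4, against 24.2% of all probe sets. In the null strain 3 were higher and 6 lower without overlap, against 22.6% and 20.9% of all, and limma called 0 COS probe sets (3 at an unadjusted p under 0.05) and 2.34% of all (19.8% at an unadjusted p under 0.05). The intensity-trend fit also called 0 there. With the 4 MMS arrays of both strains against the 4 untreated ones, 0 of 20 did not overlap, against 21.5% of all probe sets. The medians over the 13 probe sets of 1 gene were 0.00 in wild type and -0.16 in the null strain.

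For the difference between the MMS responses, null minus wild type, limma called 0 of the 20 COS probe sets and 0% of all (2 COS probe sets and 4.97% of all at an unadjusted p under 0.05). Of the COS probe sets, 16 were below 0 and 3 above, with a median of -0.16 against 0.00 over all probe sets. The shared ones overlap in their targets and all rest on the same arrays, so nothing is read from these counts. The extremes were -1.19 ± 0.38 on 3852_f_at of COS5/COS7 and 0.15 ± 0.51 on 3039_s_at of COS9. The intensity-trend fit called 0 COS probe sets and 7 of all.

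**Figure D3:**
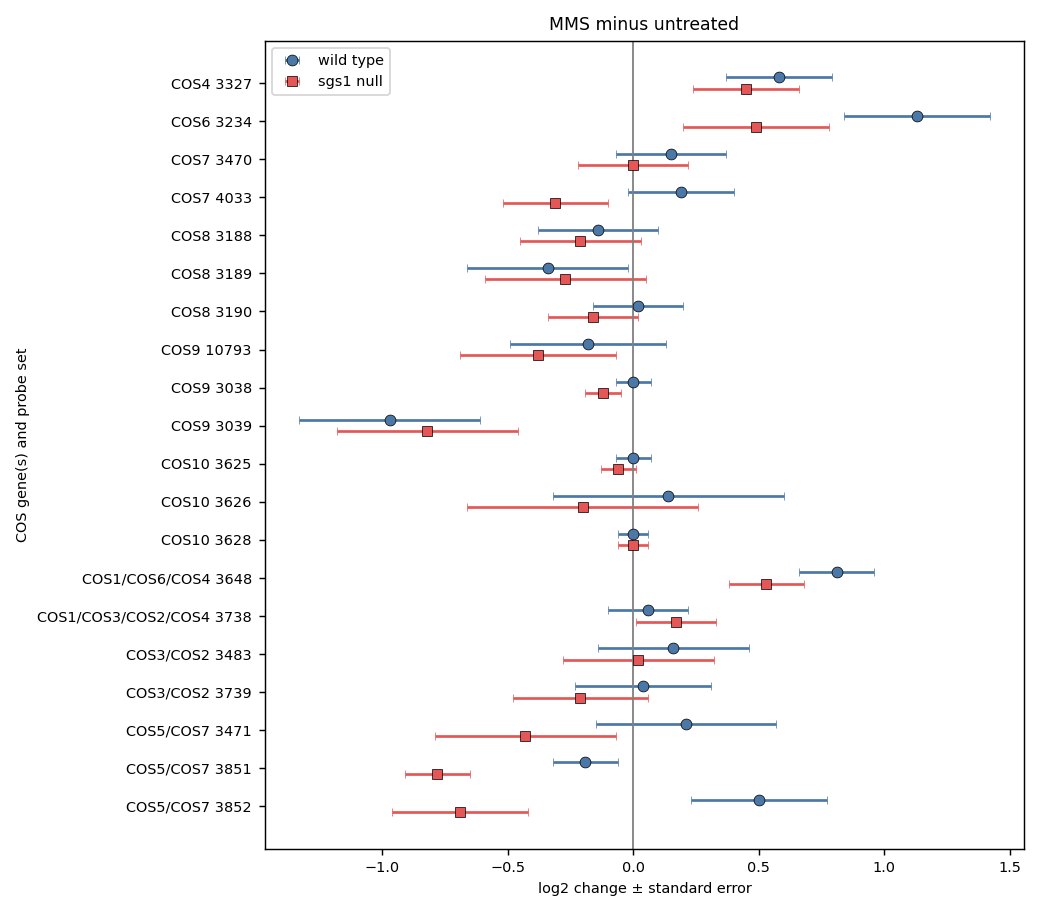
MMS response (MMS minus untreated, log2 ± standard error) of the 20 COS probe sets in wild type (circles) and sgs1 null (squares). Probe sets 3327_f_at of COS4, 3234_at of COS6 and the shared 3648_f_at lie above 0 in both strains. In both, 3039_s_at of COS9 lies below 0, and 3852_f_at of COS5/COS7 lies on opposite sides.

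COS12, a family member outside the list, was at the floor on all 4 wild-type arrays. In the null strain its 1 probe set read 162 and 97.1 untreated and 245 and 181 with MMS. With MMS it was at least 2.17-fold higher in the null strain than in wild type (limma adjusted p = 0.571), which did not pass. The list of DUP relatives included COS12 and had 10 measured genes. Limma called 0 of its 10 probe sets in each of the 5 comparisons, with at most 2 at an unadjusted p under 0.05. Over all probe sets it called 6.23% and 2.34% for MMS in wild type and in the null strain. For the strain difference it called 0.024% untreated and 0.012% with MMS, and for the difference of responses 0%. At an unadjusted p under 0.05 these shares were 24.2%, 19.8%, 10.8%, 6.35% and 4.97%. With so few called, little can be read from 0 of 10. The median strain difference of the list was -0.11 untreated and -0.27 with MMS. DFP1 of that list had an MMS difference of -0.99 ± 0.40 in wild type (limma adjusted p = 0.224).

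Genes of the sorting pathway in which COS proteins act were described in the same fit. Counts in this and the next paragraphs stand against 6.23% of all probe sets called with MMS in wild type and 2.34% in the null strain, and 24.2% and 19.8% at an unadjusted p under 0.05. For the strain difference 10.8% of all probe sets untreated and 6.35% with MMS had such an unadjusted p. Limma called only 0.024% and 0.012% of all probe sets for it, so little can be read from counts of 0 there. For the difference of responses it called 0% of all probe sets, and 4.97% had such an unadjusted p. Of 22 probe sets for 20 genes of the ESCRT machinery, which sorts ubiquitinated proteins into multivesicular bodies, limma called 0 for either strain difference (0 at an unadjusted p under 0.05), and 1 fell with MMS in each strain. That one was SRN2, a subunit of ESCRT-I, which read 976 and 1008 in untreated wild type, 424 and 486 in wild type with MMS, 968 and 864 in the untreated null strain and 326 and 403 in the null strain with MMS. It fell by 1.34 ± 0.14 with MMS in the null strain (limma adjusted p = 0.0293). Of 23 probe sets for the ubiquitin ligase RSP5 and its adaptors, 1 fell with MMS in wild type, ALY1, an arrestin-like adaptor (-0.72 ± 0.11, limma adjusted p = 0.035), and limma called 0 in the other 4 comparisons, with at most 1 at an unadjusted p under 0.05 in each.

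Among 22 probe sets of silencing genes, 1 rose with MMS in wild type, SIR1, a silencing protein of the silent mating loci (1.40 ± 0.20, limma adjusted p = 0.0302). Limma called 0 of the 22 for either strain difference (1 in each at an unadjusted p under 0.05), and their median was 0.13 untreated and -0.06 with MMS. Of 17 probe sets for the synthesis of NAD+, the cofactor of the Sir2 deacetylase, 3 rose and 1 fell with MMS in wild type. The 3 that rose were all of NMA2, a mononucleotide adenylyltransferase gene. The largest of its changes was a rise of 1.56 ± 0.20 (limma adjusted p = 0.0249), and the nicotinamide riboside kinase gene NRK1 fell by 1.16 ± 0.20 (limma adjusted p = 0.0405). For the strain difference limma called 0 of the 17, with 4 untreated and 3 with MMS at an unadjusted p under 0.05. All of the MMS calls in wild type rest on 2 against 2 arrays, and 0 of 8330 probe sets were called without either the first or the second MMS-treated wild-type array, where 1518 and 1680 had an unadjusted p under 0.05.

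Other families near the telomeres had changes of both signs. Of 10 probe sets of 1 seripauperin gene, 2 fell with MMS in wild type, PAU13 (-1.49 ± 0.17, limma adjusted p = 0.0189) and PAU23 (-1.48 ± 0.26, limma adjusted p = 0.0457), and the median of the 10 in wild type was -0.75. The probe sets of PAU13 and PAU23 carry the suffix _f_at, so their signal may hold that of relatives. Of 18 probe sets of other subtelomeric families, 3 rose and 3 fell with MMS in wild type and 3 rose and 2 fell in the null strain. AAD6 read 97.1 and 97.1 in untreated and 1818 and 1124 in MMS-treated wild type, and AAD4, also of the aryl-alcohol dehydrogenase family, read 286 and 330 against 2408 and 2665. For either strain difference limma called 0 probe sets of both lists. At an unadjusted p under 0.05 there were 1 seripauperin and 5 other probe sets untreated, and 1 and 0 with MMS. The YRF1 helicase genes of the telomeric Y' elements had only shared probe sets and are not counted.

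The nearest annotated gene with a probe set of its own on the centromere side of each COS gene gave 10 comparisons with the surroundings. Of these genes, 5 were directly beside the COS gene and the others up to 5 annotated genes away. Of these 10, limma called 0 for a strain difference (1 untreated and 0 with MMS at an unadjusted p under 0.05), and on 0 of them did the 4 null arrays stand apart from the 4 wild-type arrays, as they did, higher or lower, on 1.84% and 1.52% of all probe sets. With shares this low, little can be read from a count of 0 of 10. With MMS 5 passed in wild type (3 higher, 2 lower) and 4 in the null strain (2 higher, 2 lower), against 6.23% and 2.34% of all probe sets. AAD6, AAD10 and MAL11 among them also stand in the list of other subtelomeric families, so these counts overlap with those above. Directly beside COS8, ARN2, a siderophore transporter gene, read 1302 and 879 in untreated wild type, 1250 and 1154 in wild type with MMS, 1498 and 1023 in the untreated null strain and 1810 and 1864 in the null strain with MMS. Its strain difference was 0.21 ± 0.26 untreated and 0.61 ± 0.26 with MMS. The 5 nearest measured genes on that side of COS8 (ARN2, PAU13, DFP4, ECM34 and YHL042W) and YHL048C-A on the other side were chosen after the values were seen. On none of these 5, nor on YHL048C-A, did the strains stand apart on all arrays. The PAU13 probe set carries the suffix _f_at, so its signal may hold that of relatives elsewhere.

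Near COS5, 5 annotated genes away, the aryl-alcohol dehydrogenase gene AAD10 read 2469 and 2056 in untreated wild type and 1021 and 969 with MMS, and in the null strain 5332 and 4681 untreated and 1634 and 1190 with MMS. Like the COS5/COS7 probe sets it was higher in the untreated null strain (1.15 ± 0.19) with a smaller strain difference with MMS (0.49 ± 0.19), but it fell with MMS in both strains, by 1.18 ± 0.19 in wild type and by 1.84 ± 0.19 in the null strain. Near COS4 and COS6, AAD6 and the maltose transporter gene MAL11 moved in opposite directions with MMS. AAD6 was at the floor of 97.1 on both untreated wild-type arrays, so its rise in wild type was at least 3.88. In the null strain it rose by 3.77 ± 0.26, from 102 and 130 untreated. MAL11 fell by 2.25 ± 0.27 in wild type and by 1.96 ± 0.27 in the null strain.

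**Figure D4:**
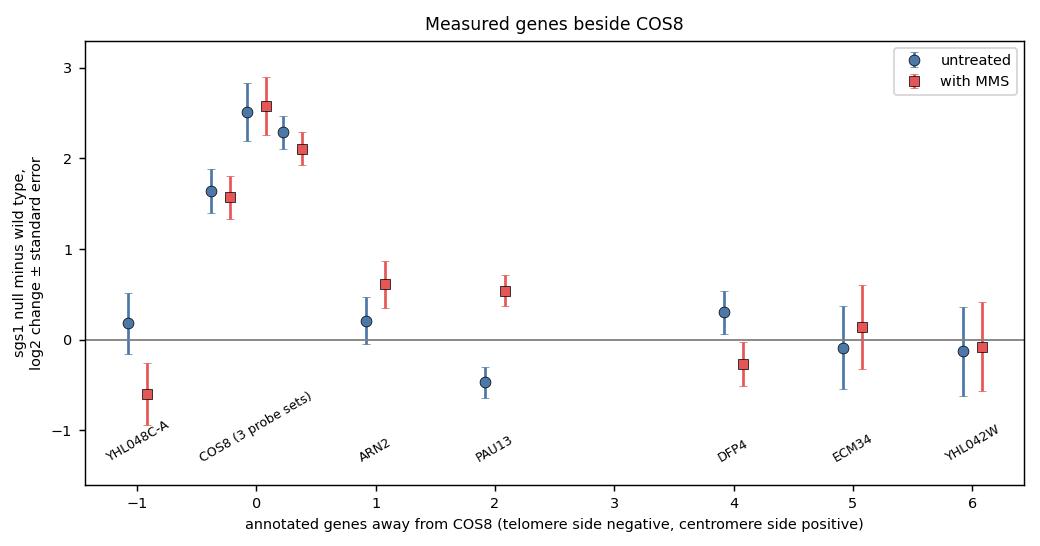
Strain difference (sgs1 null minus wild type, log2 ± standard error) of COS8 and the measured genes beside it on the left arm of chromosome VIII, by the number of annotated genes away, untreated (circles) and with MMS (squares). COS8 lies at 1.57 or more on all 3 probe sets and its neighbours lie between -0.60 and 0.61.

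The genes whose profile over the 8 arrays was most like that of the 16 COS probe sets above the floor were sought among 5653 probe sets of other genes. They were NCA3, YOR186W and the proline permease gene PUT4 (Pearson r = 0.971 each), YHR033W (r = 0.961) and the hexose transporter gene HXT5 (r = 0.956). The arrays fall into 2 strains, and each of these genes was higher in the null strain, as the mean COS profile was by 0.80. That mean leans on COS8, whose 3 probe sets differed by 1.61 to 2.55, and COS5/COS7, whose 3 differed by 1.02 to 1.21. The median over all 20 COS probe sets, with those at the floor, was 0.42. PUT4 read 151 and 142 in untreated and 128 and 145 in MMS-treated wild type, against 458 and 438 in the untreated and 359 and 447 in the MMS-treated null strain. The likeness is a description with no test.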

How the data were processed

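The authors deposited 1 intensity per probe set and array on a linear scale. For array software, background correction and scaling target the entry is: not given in the sources used here. Scale and centring are therefore unknown. Deposited array means ran from 1906 to 2000 and medians from 775 to 972, a spread of 25.4%. The number of arrays limits the precision. Of 8363 probe sets, 32 controls and 1 with a missing value were left out. Genes came from the platform annotation: 6269 probe sets had 1 symbol, 309 several and 1752 none, and 0 symbols needed updating through the RefSeq table of R64.

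Arrays were quantile normalized because medians differed by over 5%, and values under the 10th percentile were raised to it. Probe sets were kept apart, not averaged per gene. Log2 values were fitted with limma 3.58.1 in R 4.3.3 (4 residual and 0.929 prior degrees of freedom), two-sided, with Benjamini-Hochberg adjustment over 8330 probe sets. The fit was tested on simulated data. The members, the gene lists and the floor were chosen with earlier results of these data known. Named genes were the COS probe sets, SGS1, COS12, up to 4 genes per list past the threshold (otherwise the 2 with the widest change), the nearest centromere-side neighbours and the 5 most similar profiles. Alternatives were median centring, the deposited scale, other floors, a filter on dim probe sets, averaging per gene, an intensity trend, the rep mark as a block and leaving out each array.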

Additional observations from a re-analysis of the deposited data

Results flagged for a closer look

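Probe set 3852_f_at, shared by COS5 and COS7, read on opposite sides of its untreated values with MMS in the 2 strains. Both MMS-treated wild-type arrays (1331 and 1329) were above both untreated ones (786 and 1132), while both MMS-treated sgs1 null arrays (1990 and 1861) were below both untreated ones (2509 and 3861). The difference of the responses was -1.19 ± 0.38 on the log2 scale and did not pass in the limma fit over all probe sets. Over the alternative settings it ran from -1.51 to -0.89. The other COS5/COS7 probe sets had differences of -0.63 ± 0.51 (3471_f_at) and -0.59 ± 0.19 (3851_s_at). Groups of 2 arrays are too small for a check of single arrays that stand apart.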

How the results depend on the processing

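The strain differences of COS8 kept their direction under all alternatives run: untreated they ran from 1.47 to 1.80 (3188_at), from 2.21 to 2.84 (3189_i_at) and from 2.08 to 2.48 (3190_f_at), and those of COS5/COS7 from 0.92 to 2.04. The single COS call, 3648_f_at with MMS in wild type, was lost with median centring, the floor at the 20th percentile, no floor, the dim filter, the intensity trend and the block (0 COS probe sets each). COS calls for the strain difference untreated numbered 1 without the floor and 2 with the dim filter, and with MMS 1 without the floor. Probe sets called without the floor numbered 339 and 59 for MMS in wild type and in sgs1 null, against 519 and 195, and 6 and 2 for the strain difference untreated and with MMS, against 2 and 1. Those strain counts were 3 with MMS under median centring, 4 and 2 on the deposited scale, 12 and 2 with the higher floor, 10 and 2 with the dim filter and 8 and 2 with the trend. The difference of the responses had 3 calls with the higher floor and 7 with the trend. In wild type, 272 calls were higher and 247 lower with MMS, against 241 and 343 with median centring. The second array of each group bears the word rep. Same-marked arrays of 2 groups had deviations that correlated between -0.08 and 0.68, above 0.1 in 4 of 6 pairs of groups. Not every pair did, so the mark was not taken as pairing, and whether it stands for a shared batch or day was not tested. With the mark as a replicate block, 953 and 482 probe sets were called for MMS in wild type and sgs1 null, and 1 COS probe set (3851_s_at) in sgs1 null. Without 1 array, the counts ran from 0 to 324 for MMS in wild type, from 1 to 14 in sgs1 null and from 1 to 3 for the strain difference untreated, were 1 with MMS and 0 for the difference of responses, and 0 COS probe sets were called in any comparison. The cause of these changes was not tested.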

Other observations

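The genes most like the mean of the 3 COS8 probe sets over the 8 arrays, sought after the values were seen, were PUT4 (Pearson r = 0.994), the homoserine acetyltransferase gene MET2 (r = 0.960), IDP2, which encodes the cytosolic isocitrate dehydrogenase (r = 0.956), NCA3 (r = 0.948) and YDR541C (r = 0.943). MET2 read 813 and 580 in untreated and 679 and 496 in MMS-treated wild type, against 2268 and 2143 in the untreated and 2008 and 2454 in the MMS-treated sgs1 null strain. The mean difference between the strains was 1.58 for PUT4, 1.81 for MET2 and 1.09 for IDP2, against 2.12 for COS8. The 8 arrays fall into 2 strains and the correlations carry no test.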
